A study of Mus musculus with 9 samples.

Results

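Mitochondrial fatty acid β-oxidation was described through 9 genes: the carnitine palmitoyltransferases Cpt1a and Cpt2, the acyl-CoA dehydrogenases Acadvl, Acadl, Acadm and Acads, the trifunctional protein subunits Hadha and Hadhb, and the thiolase Acaa2. Every probe set of the deposited log2 table that carried one of these symbols was taken, without use of its values. This gave 16 of the 22626 probe sets that are not controls, and all 9 genes were represented. Of the 16, 15 named a single gene, and 1426522_at of Hadhb also named LOC623031.

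RNA was measured on 9 Affymetrix arrays (Mouse430A_2), with 3 arrays per sorted CD8+ T cell population, described in the labels as biological replicates. Naive cells were CD44-lo and CD62L-hi, and each preparation came from 2 pooled normal female C3H.SW mice. Effector cells (effector memory in the labels) were CD44-hi and CD62L-lo, and postmitotic cells were CD44-lo and CD62L-hi. Both were taken from 4 pooled male B6/SJL recipients a preparation, 14 days after 10 Gy of irradiation and a graft of naive female C3H.SW CD8+ T cells and marrow freed of T cells. Such a graft induces graft-versus-host disease, in which donor T cells attack host tissue. Irradiation, the host and the graft are therefore shared by effector and postmitotic cells and absent from naive cells, and postmitotic cells carry the same sorted surface phenotype as naive cells. The ages of the mice are not given in the sources used here.

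β-oxidation shortens fatty acids inside mitochondria and passes electrons to the respiratory chain. Long-chain acyl groups enter on carnitine through CPT1 and CPT2, and each round then consists of a dehydrogenation, a hydration, a further dehydrogenation and a thiolytic cleavage, with separate enzymes for different chain lengths. In T cells, naive and memory cells are known to draw on this pathway, while dividing effector cells are known for high glycolysis, and transcript levels do not measure the flux.

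The deposited values are log2 signals on which a probe set with no signal sits at 6.64 and none can fall below 5.64, so fold changes of dim probe sets are understated. Array medians lay between 7.89 and 7.90 after the authors' quantile normalization, and 15.3% to 15.9% of probe sets on an array were at or below zero signal. The sort was visible in Cd44, with group means of 7.28 (naive), 11.11 (effector) and 7.33 (postmitotic). Of 8 CD8 T cell marker genes 7 were measured, without Cd8a, and all 7 lay above zero signal on all 9 arrays. The summed linear signal of 7 dendritic cell and class II genes was 997 to 1402 in naive, 4070 to 4616 in effector and 1075 to 4119 in postmitotic arrays, with no gene of that list at zero signal throughout. The summed signal of 12 myeloid genes was 2598 to 3453, 3147 to 7375 and 1070 to 3276, and that of 7 B and plasma cell genes was 655 to 794, 581 to 745 and 559 to 706. Csf1r, the brightest gene of the myeloid list, weighs most in the myeloid sum. Its group means were 11.06 (naive), 11.72 (effector) and 9.79 (postmitotic), so that range does not stand for the 12 genes alike. Eif2s3y, a Y-linked gene, read 11.47 on postmitotic replicate 3 and 9.50 on effector replicate 3 and at most 7.02 elsewhere, although the donors were female. The distance between 3′ and 5′ probe sets of the transferrin receptor control was 0.38 to 0.54 log2 units in naive, 1.28 to 1.94 in effector and 1.07 to 1.75 in postmitotic arrays. That of actin ran the other way between naive and effector arrays, with 1.28 to 1.87, 0.78 to 0.97 and 1.35 to 1.48, and that of Gapdh was 2.99 to 3.12, 2.84 to 2.88 and 2.89 to 2.96. The part of these signals of other cells and of RNA quality in the results was not tested, and values without both arrays with Y-linked signal are given where a named call was lost without them.

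Between effector and naive cells, Acadl was 5.27-fold higher and Acadm 1.82-fold lower in effector cells. These were the only members called, 1 of 16 probe sets higher against 12.4% of all probe sets and 1 lower against 13.6%. In limma, a probe set counts as called at a Benjamini-Hochberg adjusted p under 0.05 over all 22626. Between postmitotic and effector cells, Acadm and 2 probe sets of Acaa2 were higher in postmitotic cells and Acadl and 1 probe set of Cpt1a lower, which is 3 higher against 10.4% of all probe sets and 2 lower against 9.68%. Between postmitotic and naive cells only the 2 Acaa2 probe sets were called, both higher, against 4.23% of all probe sets, and 0 were called lower, against 3.96%. At an unadjusted p under 0.05, 5, 8 and 4 of the 16 passed in these comparisons, with 1 of the last 4 lower. The share of all probe sets under that limit is not given here, so these counts are not read as a trait of the members. The median difference of the 16 probe sets was 0.14 for effector minus naive, 0.08 for postmitotic minus effector and 0.12 for postmitotic minus naive on the log2 scale, beside -0.05, 0.03 and -0.01 over all probe sets.

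For effector minus naive 13 of the 16 differences were within 0.5 log2 units of 0, for postmitotic minus naive 14 were, and for postmitotic minus effector 9 were. Of the 16 differences, 11 were positive and 5 negative for effector minus naive, 9 and 7 for postmitotic minus naive and 10 and 6 for postmitotic minus effector. The shares of all probe sets within that distance or of each sign are not given here. These counts are therefore not read as a trait of the members. Cpt1a and Acaa2 hold 3 probe sets each, so the 16 are not separate genes.

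**Figure D1:**
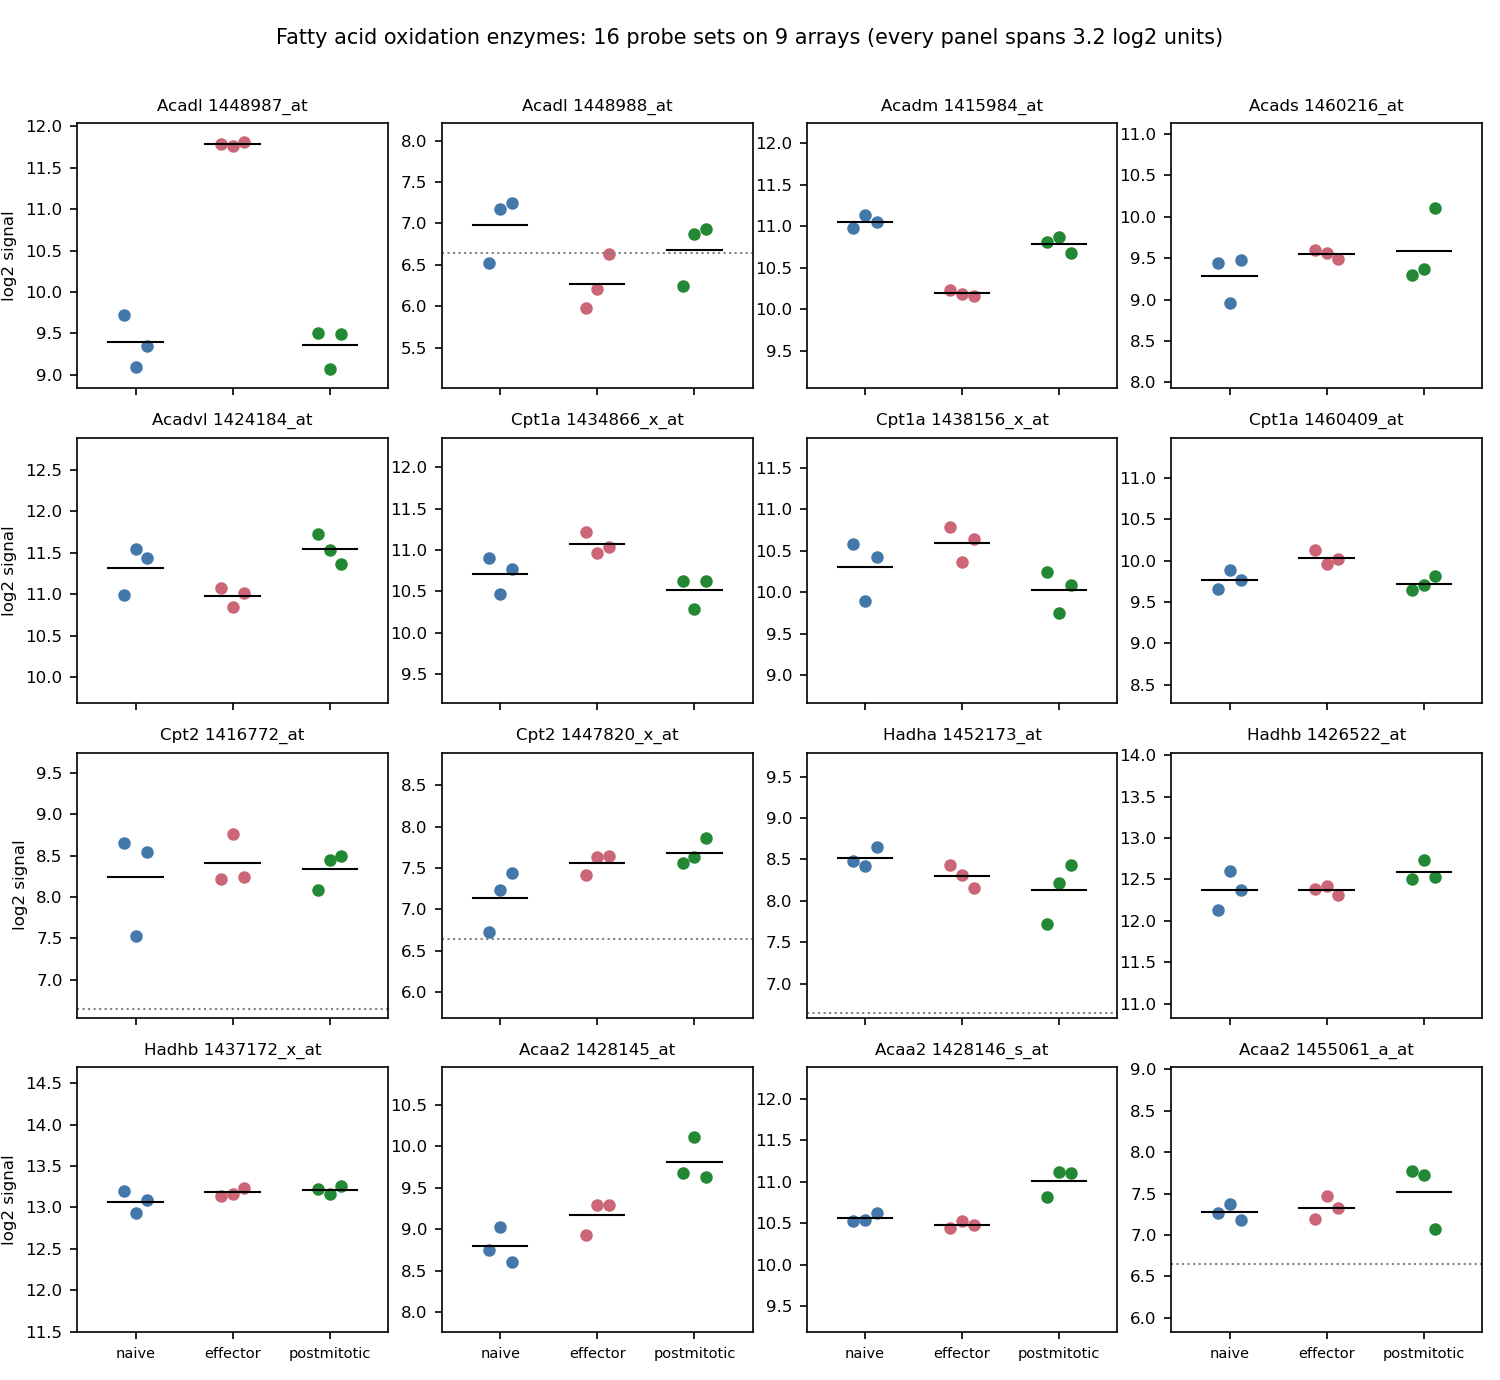
Deposited log2 signal (vertical axis) of each of the 16 probe sets on the 3 naive, 3 effector and 3 postmitotic arrays; points are arrays, bars are group means, and the dotted line is zero signal at 6.64 where it falls within the panel. Every panel covers the same width in log2 units, so the separation of effector arrays for Acadl 1448987_at, the lower effector points of Acadm and the higher postmitotic points of Acaa2 1428145_at and 1428146_s_at can be compared by eye with the overlap elsewhere.

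Cpt1a encodes the outer membrane carnitine palmitoyltransferase of most tissues, the step at which malonyl-CoA holds back entry of long-chain fatty acids. It lies at chr19:3322326-3385735 of GRCm38.p6, the RefSeq build of all coordinates given, and was read by 3 probe sets. The log2 signal of 1434866_x_at was 10.91, 10.47 and 10.77 in naive, 11.22, 10.96 and 11.04 in effector and 10.63, 10.29 and 10.62 in postmitotic replicates 1 to 3. Every effector array was above every naive and every postmitotic array, while naive and postmitotic arrays overlapped. The difference of postmitotic minus effector was -0.56 (SE 0.153), a level 1.47-fold lower (limma, adjusted p = 0.0343), and that of effector minus naive was 0.36 with an adjusted p of 0.131. The call was lost, with an adjusted p between 0.0526 and 0.116, without naive replicate 3, without any single effector array or without any single postmitotic array, and at 0.121 without both arrays with Y-linked signal.

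The other Cpt1a probe sets had differences of the same sign that were not called. Postmitotic minus effector was -0.58 at 1438156_x_at (adjusted p = 0.098 in limma) and -0.32 at 1460409_at (adjusted p = 0.0722), and at both the postmitotic and effector arrays did not overlap. The mean of the 3 probe sets gave -0.48 with an adjusted p of 0.0267. The suffix _x_at marks probe sets with probes that may bind other similar sequences, so the values of 1434866_x_at and 1438156_x_at are uncertain to that extent.

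Cpt2, the inner membrane enzyme that returns the acyl group from carnitine to coenzyme A, was not called in any comparison. It lies at chr4:107903982-107923589. Its probe set 1416772_at ranged from 7.52 in naive replicate 2 to 8.76 in effector replicate 2, with all groups overlapping. The spread among the naive arrays, 7.52 to 8.66, was wider than any difference between group means, and the 95% interval of effector minus naive ran from -0.54 to 0.87. The dimmer 1447820_x_at read 6.73, 7.24 and 7.44 in naive and 7.56, 7.63 and 7.86 in postmitotic replicates. Those groups did not overlap, and their difference of 0.54 had an adjusted p of 0.121.

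The acyl-CoA dehydrogenases open each round of oxidation and are divided by the chain length they prefer. Acadvl, the enzyme of very long chains on the inner membrane, lies at chr11:70010183-70015428. Its signal at 1424184_at was 10.99, 11.55 and 11.43 in naive, 11.08, 10.85 and 11.02 in effector and 11.73, 11.53 and 11.37 in postmitotic replicates. All postmitotic arrays were above all effector arrays, and the naive arrays overlapped with both. Postmitotic minus effector was 0.56 (SE 0.169) with an adjusted p of 0.0503 in limma, so it was not called. It passed in 7 of the alternatives, for example with an adjusted p of 0.0406 when 1 probe set per gene was tested and of 0.0181 without naive replicate 1.

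Acadl encodes the long-chain acyl-CoA dehydrogenase, a main long-chain enzyme of mouse mitochondria. It lies on the minus strand at chr1:66830839-66863309. Its signal at 1448987_at was 9.73, 9.10 and 9.35 in naive, 11.79, 11.76 and 11.81 in effector and 9.50, 9.07 and 9.49 in postmitotic replicates. The effector arrays stood more than 2 log2 units above every other array, with an SD of 0.03 beside 0.32 among naive and 0.25 among postmitotic arrays, and naive and postmitotic arrays overlapped. Effector minus naive was 2.40 (SE 0.181, limma, adjusted p = 3.95e-05), and postmitotic minus effector was -2.43 (adjusted p = 5.5e-05). Postmitotic minus naive was -0.04, with a 95% interval from -0.45 to 0.38, so on a scale with the naive mean at 0 and the effector mean at 1 the postmitotic mean lay at -0.02. Both calls were kept in all 20 alternatives. Cd68, a marker of myeloid cells, was 8.93 to 9.32 on effector arrays and at most 7.54 elsewhere, and was the 1 gene of 12 in the myeloid list called higher in effector than in naive cells, with Cd14 lower. Of the 7 dendritic cell and class II genes 3 were called higher. The part of these cells in the Acadl difference was not tested. Markers on postmitotic replicate 1 were mixed. The class II genes H2-Aa and H2-Ab1 read 11.14 and 9.42 there, beside 10.90 to 11.11 and 9.55 to 9.74 on effector arrays. H2-Eb1, Ciita and Flt3 lay within their effector range. Cd74, Itgax and Cd68 read 8.95, 7.67 and 7.27, below every effector array. In bulk samples such as these, fewer cells with a transcript and less of it per cell cannot be told apart.

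The second Acadl probe set, 1448988_at, did not follow. It was above zero signal on 4 of 9 arrays, with group means of 6.98 (naive), 6.27 (effector) and 6.68 (postmitotic), and all 3 effector arrays were below zero signal. Effector minus naive was -0.71 with an adjusted p of 0.0968 in limma, opposite in sign to 1448987_at. Without naive replicate 1 it was -0.94 and passed (adjusted p = 0.0377). The mean of both probe sets gave 0.85 for effector minus naive (adjusted p = 0.00158). The transcript parts that the probe sets read were not analysed here.

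The upstream sequence of Acadl is shown because this gene had the largest difference of the members, with that of Acadm, the member that differed the other way. Each is the 250 bases before the RefSeq gene start of GRCm38.p6, 5′ to 3′ on the gene's strand, at chr1:66863310-66863559 for Acadl and chr3:153944644-153944893 for Acadm, both on the minus strand. Capitals mark GGGCGG, the GC box bound by SP factors, or AGGTCA, the core motif of nuclear receptors such as PPAR and ERR, on either strand.
Acadl: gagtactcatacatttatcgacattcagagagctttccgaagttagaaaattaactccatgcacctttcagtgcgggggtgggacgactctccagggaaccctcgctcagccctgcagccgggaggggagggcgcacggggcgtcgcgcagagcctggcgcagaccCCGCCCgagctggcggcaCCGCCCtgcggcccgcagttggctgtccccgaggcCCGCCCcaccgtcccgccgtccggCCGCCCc
Acadm: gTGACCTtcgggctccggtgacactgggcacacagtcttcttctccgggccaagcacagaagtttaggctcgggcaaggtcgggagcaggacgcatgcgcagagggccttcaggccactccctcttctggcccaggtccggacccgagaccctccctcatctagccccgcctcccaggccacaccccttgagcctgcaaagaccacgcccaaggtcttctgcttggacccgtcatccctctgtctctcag
The Acadl window held 4 GC boxes, at 84, 66, 31 and 7 bases upstream, and no AGGTCA. The Acadm window held AGGTCA once, at 249 bases upstream on the opposite strand, and no GC box. GC content was 68.0% for Acadl and 64.0% for Acadm, beside a median of 52.4% over all promoters of the table.

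GGGCGG occurred in 32.7% and AGGTCA in 14.0% of the 32851 RefSeq promoter windows. The windows of 8 of the 9 members were searched, and that of Acaa2 was left out. GGGCGG was found in 6 of the 8 (Acadl, Acads, Cpt1a, Cpt2, Hadha and Hadhb) and AGGTCA in 3 (Acadm, Acadvl and Cpt1a). The windows of Hadha and Hadhb overlap, and the only GGGCGG of Hadha is also the one 90 bases upstream of Hadhb, so that site is counted for both. The longer TCAAGGTCA, which contains AGGTCA and is preferred by ERR, occurred in 0.387% of all windows, the cyclic AMP motif TGACGTCA in 1.55% and the E-box CACGTG in 6.02%, and none of these was in a member window. Matches were searched on both strands and are letters in a window, not measured binding.

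Acadm encodes the medium-chain dehydrogenase and lies at chr3:153922353-153944643. Its signal at 1415984_at was 10.98, 11.14 and 11.05 in naive, 10.23, 10.18 and 10.16 in effector and 10.81, 10.87 and 10.67 in postmitotic replicates. No groups overlapped: effector arrays were lowest, naive arrays highest and postmitotic arrays between them. Effector minus naive was -0.86 (SE 0.097, limma, adjusted p = 0.000338) and postmitotic minus effector 0.59, a level 1.51-fold higher (adjusted p = 0.00316). Postmitotic minus naive was -0.27 with an adjusted p of 0.137 and was not called. The postmitotic mean lay at 0.31 of the way from the naive to the effector mean, and both calls were kept in all 20 alternatives, including the one without the arrays with Y-linked signal.

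Acads, the short-chain dehydrogenase at chr5:115110299-115119346, was not called. At 1460216_at it ranged from 8.96 in naive replicate 2 to 10.11 in postmitotic replicate 3, and the other 7 arrays lay between 9.30 and 9.60. Postmitotic replicate 3 is also the array with the highest Y-linked signal. The effector arrays, 9.48 to 9.60, lay just above the naive arrays, and effector minus naive was 0.26 with a 95% interval from -0.27 to 0.79.

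The trifunctional protein of the inner membrane carries out the later steps for long chains, with hydratase and dehydrogenase activities in the α subunit (Hadha) and the thiolase in the β subunit (Hadhb). The genes lie head to head on chromosome 5, Hadha on the minus strand at chr5:30119423-30154980 and Hadhb on the plus strand at chr5:30155253-30184593, with 272 bases between them. The Hadhb window, chr5:30155003-30155252 on the plus strand, is shown because it spans most of that gap and so covers most of the Hadha window as well. Capitals mark GGGCGG.
Hadhb: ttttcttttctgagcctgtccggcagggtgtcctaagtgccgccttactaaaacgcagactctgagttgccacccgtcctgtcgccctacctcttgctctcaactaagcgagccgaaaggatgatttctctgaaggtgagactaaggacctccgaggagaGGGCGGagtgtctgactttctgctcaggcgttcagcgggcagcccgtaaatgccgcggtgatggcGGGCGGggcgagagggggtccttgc
It held GGGCGG at 90 and 25 bases upstream of Hadhb and no AGGTCA.

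Neither subunit was called in any comparison. Hadha at 1452173_at was 8.48, 8.42 and 8.65 in naive, 8.43, 8.31 and 8.16 in effector and 7.73, 8.22 and 8.44 in postmitotic replicates. Its naive and postmitotic arrays overlapped, and the difference of -0.39 had an adjusted p of 0.245 in limma. Hadhb at 1437172_x_at lay between 12.93 and 13.25 on all arrays, and at 1426522_at between 12.13 and 12.73. At 1426522_at all postmitotic arrays were above all effector arrays, with a difference of 0.22 and an adjusted p of 0.342. At 1437172_x_at the 95% interval of effector minus naive was -0.12 to 0.34. The Hadhb values are uncertain where probes bind another similar sequence, since 1426522_at also names LOC623031 and 1437172_x_at carries the suffix for shared probes.

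Acaa2, the mitochondrial thiolase that cleaves acetyl-CoA from medium-chain intermediates, lies on chromosome 18 and was read by 3 probe sets. At 1428145_at its signal was 8.75, 9.03 and 8.60 in naive, 8.93, 9.29 and 9.29 in effector and 9.68, 10.11 and 9.63 in postmitotic replicates. At 1428146_s_at it was 10.52, 10.53 and 10.62 in naive, 10.44, 10.53 and 10.47 in effector and 10.81, 11.12 and 11.10 in postmitotic replicates. In both, every postmitotic array was above every other array, while naive and effector arrays overlapped.

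Postmitotic minus naive was 1.01 (SE 0.181) at 1428145_at, a level 2.02-fold higher (limma, adjusted p = 0.0146), and 0.45 (SE 0.110) at 1428146_s_at, 1.37-fold higher (adjusted p = 0.0428). Postmitotic minus effector was 0.64 (adjusted p = 0.0398) and 0.53 (adjusted p = 0.0104). Effector minus naive was 0.37 (adjusted p = 0.179) and -0.08 (adjusted p = 0.69), and Acaa2 was the only member called in postmitotic cells against both other groups. The dimmer 1455061_a_at was not called. Its difference to naive cells was 0.25 with an adjusted p of 0.484, and postmitotic replicate 3 was its lowest array at 7.07. The mean of the 3 probe sets gave 0.57 against naive (adjusted p = 0.0277) and 0.45 against effector cells (adjusted p = 0.0319).

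Of the 4 Acaa2 calls, that of 1428146_s_at against effector cells was kept without each single array. Without both arrays with Y-linked signal the difference to naive cells was 1.10 at 1428145_at and 0.41 at 1428146_s_at, with adjusted p-values of 0.0675 and 0.178, and the difference to effector cells was 0.79 and 0.48, with 0.0918 and 0.102. At 1428145_at the call against naive cells was also lost without naive replicate 3 (adjusted p = 0.0547), and the call against effector cells without naive replicate 1, without any single effector array or without postmitotic replicate 1 or 2 (adjusted p between 0.0547 and 0.131). At 1428146_s_at the call against naive cells was lost without any single array other than postmitotic replicate 1 (adjusted p between 0.0734 and 0.122).

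**Figure D2:**
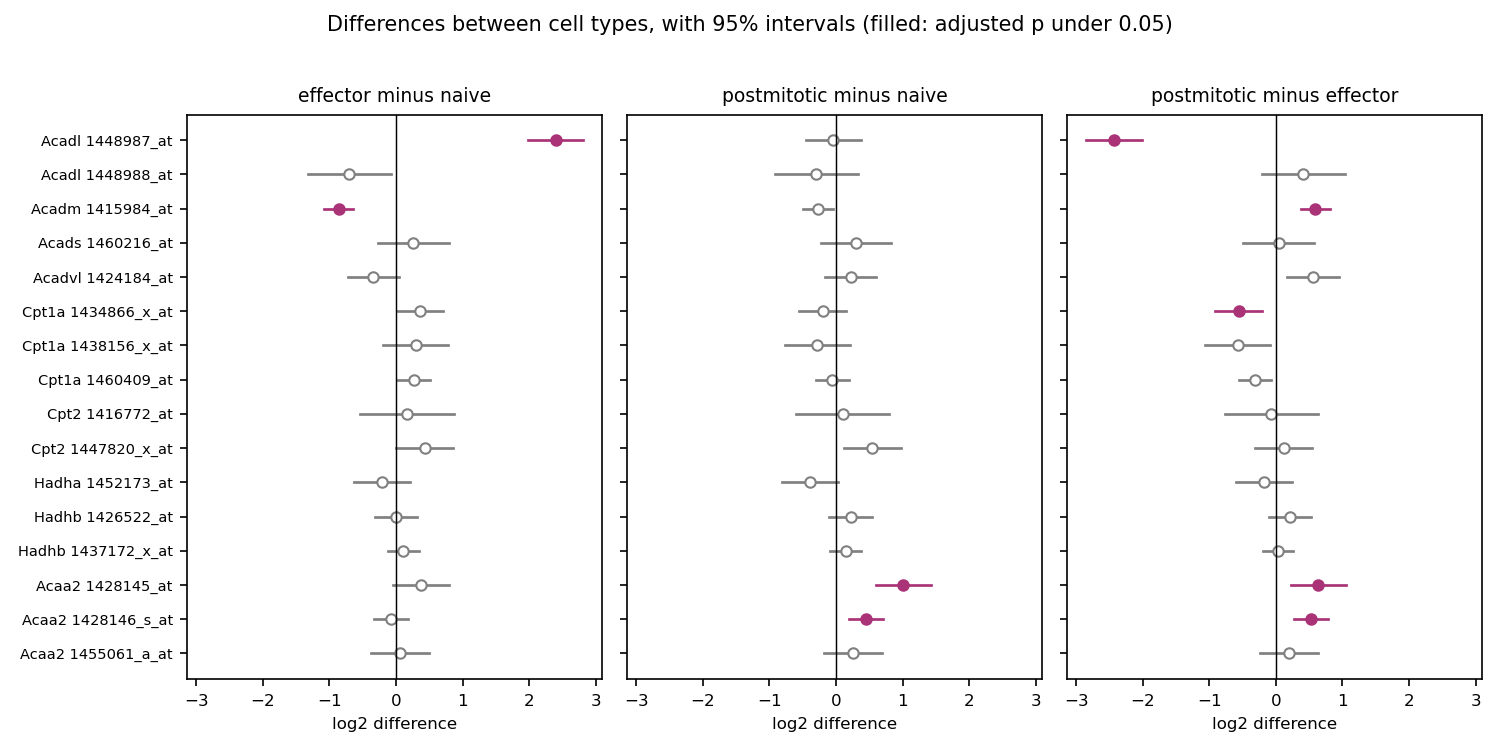
Log2 difference (horizontal axis) of the 16 probe sets in the 3 comparisons, with 95% intervals from limma; filled points passed an adjusted p of 0.05 over all probe sets. Acadl 1448987_at stands at 2.40 and -2.43 in the comparisons with effector cells and at -0.04 between postmitotic and naive cells, while the only filled points in that middle panel belong to Acaa2.

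Limits on p and ratio were applied here to those columns of the authors' deposited table, and the members that passed were Acadl, Acadm and Acaa2. In the authors' deposited table Acadl had a ratio of effector over naive of 5.27 and of postmitotic over effector of 0.185. Acadm had ratios of 0.55 and 1.51 in the same columns of the authors' deposited table. Acaa2 at 1428145_at passed these limits between postmitotic and naive cells, with a ratio of 2.02 and an unadjusted p of 0.00175 in the authors' deposited table. Acaa2 at 1428146_s_at fell short on the ratio. Its deposited ratios were 1.37 for postmitotic over naive and 1.44 for postmitotic over effector, with the authors' unadjusted p of 0.0021 and 0.000945.

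For the 3 members whose F test over the groups passed after adjustment, the genes most like them were found over the 9 arrays as those with the smallest root mean square difference of log2 values, each centred on its own mean. For Acadl 1448987_at they were Csf1 (0.160), a macrophage growth factor, Farsb (0.164), a subunit of phenylalanyl-tRNA synthetase, and Zdhhc2 (0.170), a palmitoyltransferase of proteins. Csf1 averaged 7.39 on naive, 10.07 on effector and 7.45 on postmitotic arrays. For Acadm they were Ccdc137 (0.0491), Edem1 (0.0601), which acts in degradation of misfolded glycoproteins, and Rpl7 (0.0604), a ribosomal protein. For Acaa2 1428145_at they were Gm9706 (0.120), Gria4 (0.163), a glutamate receptor subunit, and Ly6c1 (0.172), a surface protein of activated and memory T cells. Ly6c1 averaged 14.11 on naive, 14.43 on effector and 15.25 on postmitotic arrays.

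The other genes of fatty acid use were counted over 6 lists, each gene by its brightest probe set. Of 78 listed genes 72 were measured and 58 of these lay above zero signal on all 9 arrays. Between effector and naive cells 13 of the 72 were higher, against 13.7% of all genes, and 16 lower, against 15.4%. Between postmitotic and effector cells 11 were higher, against 12.1%, and 8 lower, against 10.9%. Between postmitotic and naive cells 6 were higher, against 4.94%, and 2 lower, against 4.52%. These shares of all genes are also the background for the counts of each list below. None is given for the unadjusted limit. The median differences of the 72 were -0.15, 0.12 and 0.00, beside -0.06, 0.04 and -0.01 over all genes. Without the arrays with Y-linked signal the counts were 21, 12 and 1 in place of 29, 19 and 8. The 8 genes called between postmitotic and naive cells became 5 without naive replicate 2 or effector replicate 3, 2 without naive replicate 3, 3 without postmitotic replicate 1 or 2 and 4 without postmitotic replicate 3, and 0 when only the 6 arrays compared were fitted.

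In uptake and activation 4 of 11 genes were higher and 2 lower in effector than in naive cells. Fabp5, a cytosolic fatty acid binding protein, averaged 7.58 ± 0.11 on naive, 10.76 ± 0.09 on effector and 8.46 ± 0.30 on postmitotic arrays (SD, n = 3 each). It was 9.06-fold higher in effector than in naive cells, a log2 difference of 3.18 (limma, adjusted p = 4.18e-06). It was also higher in postmitotic than in naive cells, by 0.88 (adjusted p = 0.015). That call did not pass when naive replicate 3 (0.0536) or postmitotic replicate 2 (0.0525) was left out. Among the acyl-CoA synthetases, which activate fatty acids, Acsl5 and Acsl4 were higher in effector than in naive cells by 0.84 and 0.58 and Acsl1 was lower, at -0.96. Acsl1 was higher in postmitotic than in effector cells by 0.96 (adjusted p = 0.0211), a call that did not pass after leaving out effector replicate 2 or 3 or postmitotic replicate 1 or 3 (0.06 to 0.0787), or both arrays with Y-linked signal (0.18). Lipa, the lysosomal acid lipase, was lower in effector than in naive cells at -1.50 (adjusted p = 0.000195). It was also lower in postmitotic than in naive cells, at -0.73 (adjusted p = 0.025), which did not pass in the absence of postmitotic replicate 2 or 3, naive replicate 1 or 3, or effector replicate 3 (0.0514 to 0.0816), or of both arrays with Y-linked signal (0.131). Averaging its probe sets gave -0.26. Slc27a4, a fatty acid transport protein with acyl-CoA synthetase activity, was higher in effector than in naive cells by 0.93 and differed by -1.63 for postmitotic minus effector (adjusted p = 3.72e-05). Its postmitotic minus naive difference was -0.69 (adjusted p = 0.00986), a call lost without both arrays with Y-linked signal (0.0778) or with only the 6 arrays compared (0.0587).

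The carnitine shuttle beyond the members had 1 of 5 genes higher and 1 lower in effector than in naive cells. Crot, the carnitine octanoyltransferase of peroxisomes, was higher in effector cells by 1.03 (limma, adjusted p = 0.000168) and lower in postmitotic than in effector cells, at -0.99. Slc22a5, the plasma membrane carnitine transporter, was lower in effector cells at -0.65 (adjusted p = 0.0343). The inner membrane carrier Slc25a20 had means of 11.11, 11.12 and 11.15 and was not called.

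Electron transfer from the acyl-CoA dehydrogenases differed between its parts. Etfb, the β subunit of the electron transfer flavoprotein, was 3.11-fold higher in effector than in naive cells (limma, log2 difference 1.64, adjusted p = 1.74e-05) and lower again in postmitotic than in effector cells, at -1.12. Postmitotic minus naive was 0.51 (adjusted p = 0.0251), a call that did not pass after leaving out naive replicate 2 or 3, effector replicate 2 or 3, or any postmitotic array (0.0526 to 0.0799), without both arrays with Y-linked signal (0.113) or with only the 6 arrays compared (0.107). Its partner Etfa was higher by 0.49 (adjusted p = 0.0153), and Etfdh, which hands the electrons to ubiquinone, differed by -0.26 (adjusted p = 0.108). In that list of 10 genes 2 were higher and 3 lower in effector than in naive cells. Ivd, the dehydrogenase of leucine breakdown, was lower in effector than in naive cells at -1.36 (adjusted p = 7.07e-05), and postmitotic minus effector was 1.42.

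Of the 13 genes of later steps, 3 were higher and 3 lower in effector than in naive cells. Between postmitotic and effector cells 6 were higher and 1 lower at an unadjusted p under 0.05 in limma. Over the 72 genes of the 6 lists 19 were higher and 13 lower at that limit. The share of all genes under it is not given, so these counts are not read as a trait of the list. After adjustment 4 of the 13 genes of later steps were higher and 0 lower in postmitotic cells, against 12.1% and 10.9% of all genes. Pcca, of propionyl-CoA carboxylase, was the largest of these at 0.90 (adjusted p = 0.000543), with Acat1, the thiolase of ketone and isoleucine breakdown, at 0.45 (adjusted p = 0.00805). Decr1 and Eci2, which handle double bonds of unsaturated fatty acids, were higher than in naive cells in both recipient groups. Decr1 differed by 0.84 in effector and 0.57 in postmitotic cells, and Eci2 by 0.61 and 0.52. Eci1, of the same list, differed from naive cells by 0.03 and 0.04, and Decr2, of the peroxisomal list, by 0.43 and -0.04. Neither Eci1 nor Decr2 was called. The postmitotic calls of Decr1 and Eci2 were lost without naive replicate 2 or postmitotic replicate 1 (limma, adjusted p between 0.0514 and 0.0603). That of Eci2 was also lost without naive replicate 3 (0.0738) or postmitotic replicate 3 (0.0547). Without both arrays with Y-linked signal the adjusted p was 0.104 for Decr1 and 0.113 for Eci2, and the mean of the Decr1 probe sets gave 0.32 (adjusted p = 0.104).

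Among 14 peroxisomal genes 1 was higher and 4 lower in effector than in naive cells. Amacr, which racemizes branched acyl-CoA, was among the lower genes at -1.05. The gene called higher was Acaa1b, at 0.97, but its naive mean of 6.29 was below zero signal, so that size is approximate, and the difference was -0.0033 when low values were raised to the 40th percentile of their array. Phyh, of phytanic acid breakdown, was higher in postmitotic than in naive cells by 0.47 (limma, adjusted p = 0.0472), a call lost without any single array other than naive replicate 1 (0.0724 to 0.126) and without both arrays with Y-linked signal (0.169).

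Of 19 regulators 2 were higher and 3 lower in effector than in naive cells, and 0 were called between postmitotic and naive cells in limma (1 higher and 2 lower at an unadjusted p under 0.05). Pdk1, a kinase that keeps pyruvate out of mitochondrial oxidation, averaged 13.24 on naive, 11.14 on effector and 13.38 on postmitotic arrays. Its differences were -2.11 for effector minus naive (adjusted p = 7.78e-06) and 2.25 for postmitotic minus effector (adjusted p = 1.3e-05). Hif1a, a regulator of glycolysis, was higher in effector than in naive cells by 1.44 and differed by -1.53 for postmitotic minus effector. Ppargc1b, a coactivator of mitochondrial genes, was lower at -0.97. Ppargc1b was higher in postmitotic than in effector cells by 0.88, a call lost without effector replicate 1 (0.0664) or postmitotic replicate 3 (0.0523), or both arrays with Y-linked signal (0.0751). Ppara and Ppard, nuclear receptors of fatty acid oxidation genes, were above zero signal on 0 of 9 arrays, so no change could be read for them. The AMP-activated kinase genes Prkaa1 and Prkaa2 were not measured here.

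**Figure D3:**
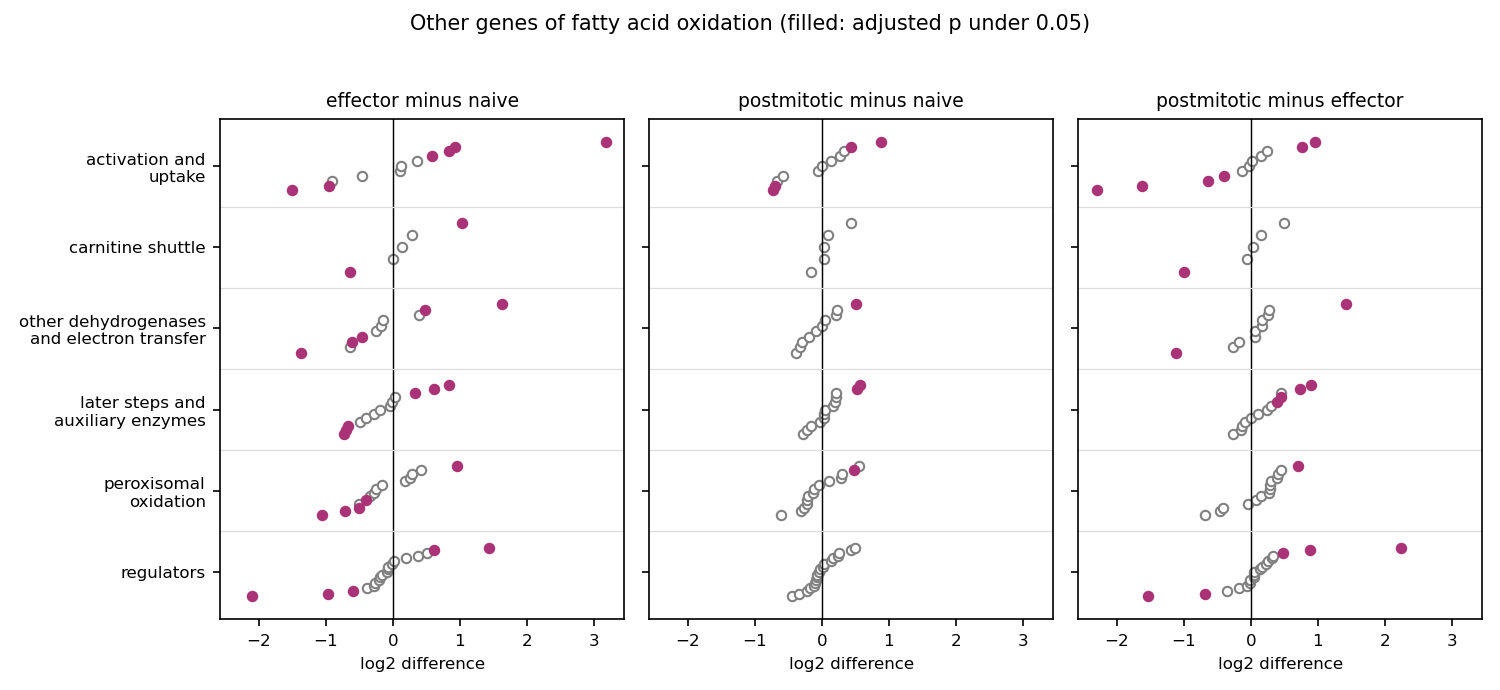
Log2 difference (horizontal axis) of the 72 measured genes of the 6 lists (rows) in the 3 comparisons; each point is a gene, and filled points passed an adjusted p of 0.05. Filled points lie on both sides of 0 in the comparisons with effector cells, from -2.11 (Pdk1) to 3.18 (Fabp5) for effector minus naive, and 8 are filled between postmitotic and naive cells.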

How the data were processed

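The 9 arrays, 3 per cell type, were used as deposited. Per the deposited readme, the authors summarised each probe set by a trimmed mean, matched their distributions to naive replicate 2 by quantiles and took log2 of the signal plus offsets that act as an offset of 100. The authors' deposited ratio (fold) columns are built on group means of these values. P-values in the authors' deposited table are unadjusted. RNA (600 ng) went through 2 rounds of amplification, per the labels' protocols. Values of the series matrix equalled the deposited log2 values to within 5e-09. Other columns of per-sample values numbered 0.

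Differences were fitted with limma 3.58.1 in R 4.3.3 on the log2 values of 22626 probe sets, with 64 controls left out, a mean per group and all 9 arrays (6 residual degrees of freedom), and adjusted over all of them by Benjamini-Hochberg. The fit was tested on simulated data. Of these probe sets 21259 named 1 gene, 826 several and 541 none. For 20752 of the first, symbols were updated by Entrez number through RefSeq GRCm38.p6, which also gave coordinates and sequences, and 507 kept the deposited symbol. All members were described. List genes were named when called, up to 5 per direction and comparison by size, and others for their place in the pathway, chosen after their values were seen. Members and lists were chosen with earlier results of these data known. Calls measure the spread between preparations of pooled mice.

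Replicate numbers recur in every group. Between groups, deviations of same-numbered arrays correlated at -0.01 to 0.15 and those of other arrays at -0.12 to 0.03. The closest array had the same number for 8 of 9 arrays. Whether a number marks a shared experiment is not stated, so the main fit did not treat the numbers as pairs. A fit with the number as a block is among the alternatives. Alternatives covered the feature tested, arrays, variance prior, block, low values, offset, centring, single arrays left out and the value table.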

Additional observations from a re-analysis of the deposited data

How the results depend on the processing

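The calls of Acadl 1448987_at and Acadm were kept in all 20 alternatives. Of the settings tried on called member differences 147 kept the call and 31 lost it, and none reversed. These counts include the series matrix, whose values equal the deposited ones to within 5e-09, so that setting could not change a call. Acadm was read by 1 probe set, so testing 1 probe set per gene or their mean left its values unchanged. Called members between effector and naive cells numbered 2, with 2 to 4 when single arrays were left out (4 without naive replicate 1). Between postmitotic and naive cells they numbered 2, with 1 when 1 probe set per gene or the mean of its probe sets was tested, 0 with the 6 arrays compared, 1 with the replicate number as a block, 0 without both arrays with Y-linked signal and 0 to 2 without single arrays. Between postmitotic and effector cells they numbered 5, with 8 under a variance prior with trend and robust fitting, 2 without the Y-linked arrays and 3 to 6 without single arrays. With the mean of the probe sets, Acadl 1448988_at took the value of the pair, 0.8455 for effector minus naive and -1.0115 for postmitotic minus effector. Over all probe sets 5884, 1854 and 4536 were called for effector minus naive, postmitotic minus naive and postmitotic minus effector. The mean of the probe sets of a gene gave 3630, 1130 and 2911, over fewer features. Postmitotic minus naive gave 474 with the 6 arrays, 3250 with trend and robust fitting, 1164 with the replicate block, 293 without the Y-linked arrays and 859 (naive replicate 3) to 1741 without single arrays, and postmitotic minus effector 2507 without the Y-linked arrays. With the block the members called were 3, 1 and 6 in that order of comparisons, and Acadl 1448988_at for effector minus naive (adjusted p = 0.00892 in limma) and Cpt1a 1438156_x_at for postmitotic minus effector (0.0125) were among those it added. The block is a fit on shared numbers only, with 8 of 9 arrays closest to an array of their own number. The cause of these movements was not tested. Called genes of the 6 lists, with alternatives chosen after seeing the data, numbered 20 to 32, 0 to 11 and 12 to 27 over all settings. Acaa1b was at -0.0033 for effector minus naive when values under the 40th percentile were raised to it. Probe sets near zero signal, such as Acadl 1448988_at, limit what can be read.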

Other observations

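From the lists, 9 enzymes of branched-chain amino acid and propionyl-CoA breakdown were grouped after their values were seen, and 5 of them were called lower in effector than in naive cells, beside 15.4% of all genes. Ivd differed by -1.36, Acad8, of valine breakdown, by -0.60, Acat1 by -0.67, and Pcca and Pccb, the subunits of propionyl-CoA carboxylase, by -0.73 and -0.69, with adjusted p-values of 7.07e-05, 0.022, 0.000795, 0.00116 and 0.0218 in limma. The other 4 were not called: Acadsb and Hsd17b10, of isoleucine breakdown, at -0.17 and -0.40, and Mcee and Mmut, which act on the product of the carboxylase, at -0.49 and -0.19. For postmitotic minus naive the 9 differences ran from -0.33 to 0.20, with adjusted p-values of at least 0.177.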
